A study of Rattus norvegicus with 35 samples.

Results

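Collagen, laminin and integrin genes were followed in the rat retina after optic nerve injury, either transection inside the orbit (intraorbital nerve transection, IONT) or crush (intraorbital nerve crush, IONC). Members were all genes of the array platform whose only symbol names a collagen chain (Col, a number, a, a number), a laminin chain (Lama, Lamb, Lamc) or an integrin subunit (Itga or Itgb with a number), together with fibronectin (Fn1), tenascin C (Tnc) and the nidogens (Nid1, Nid2). This gave 70 of the 14217 genes with 1 symbol, and each was read from its probe set with the highest mean over all arrays. They comprised 11 fibrillar collagens, 19 basement membrane genes (type IV, XV and XVIII collagens, laminins and nidogens), 23 other collagens, Fn1 and Tnc, 8 integrin alpha subunits and 7 integrin beta subunits.

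The extracellular matrix of the retina is concentrated in sheets. The inner limiting membrane on the vitreal side, the basement membranes of the vessels and Bruch's membrane under the pigment epithelium are built from type IV collagen networks, laminin trimers and the nidogens that link them. The vitreous that lies against the retina holds fibrils of type II collagen with types V, XI and IX. Cells attach to laminin, collagen and fibronectin through integrins, receptors made of an alpha and a beta subunit that connect the matrix to the actin cytoskeleton through adaptors such as talin.

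All rats were adult female Sprague-Dawley animals. In IONT the left optic nerve was cut close to the eye inside the opened dura, in IONC it was crushed farther from the eye, and both lesions involved an incision at the orbital rim and removal of eye muscles. Naïve rats had no operation, so the response to the surgery and the response to the axonal lesion cannot be told apart. The 35 arrays held 5 naïve pools, 15 IONT pools and 15 IONC pools. IONC had 3 pools at every time, namely 12 h, 24 h, 48 h and then 3 d and 7 d. IONT had 3 pools for 12 h, for 48 h and for 7 d, but only 2 for 24 h, for 3 d and for 15 d. A pool joined RNA of 4 retinas from different animals, and the p-values measure the spread between such pools. In bulk retinal RNA, fewer cells of a type and less RNA per cell cannot be told apart.

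Values are log2 signals, background-corrected and normalized by the authors, and a difference of 1 is a 2-fold change. The arrays fell into 2 sets by how far the 3′ control probe set of β-actin exceeded the 5′ one, which was 2.61 to 3.65 in naïve replicates 4 and 5 and IONT 24 h, 3 d and 15 d, and 1.53 to 1.93 in the other 27 arrays. Each injured group was compared with the naïve arrays of its own set, that is, naïve replicates 4 and 5 for IONT 24 h, 3 d and 15 d and naïve replicates 1 to 3 for the rest. The sets were defined from the data and are not a batch that the labels name. Between the naïve replicates themselves, 18 of the 40 members with a signal above 4 in at least 2 arrays differed by more than 0.5 between the sets, from -1.56 for Col1a2 to 1.40 for Col27a1. IONC 12 h replicate 2 resembled the other arrays least (median Pearson correlation 0.871, where all other arrays had 0.962 to 0.992), and the calls at this time are given with and without it. A change counted as called where it reached 1.2-fold with B, the log odds of a change, above 0 and an adjusted p under 0.01.

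Of the 70 members, 7 were called in at least 1 comparison with naïve retinas and 1 more, Col8a1, between the lesions. After IONT the type XXVII collagen gene Col27a1 and the type V collagen gene Col5a3 rose at several times, the type XXII collagen gene Col22a1 rose at 15 d, the type II collagen gene Col2a1 fell at 12 h, and the laminin chains Lama5 and Lamb3 fell at 24 h and 48 h, respectively. After IONC, Col2a1, Lamb3 and the type IX collagen gene Col9a1 fell at 12 h, Lamb3 fell at 24 h and Col5a3 rose at 48 h. By role, 3 of 11 fibrillar collagens, 2 of 19 basement membrane genes, 3 of 23 other collagens and 0 of 15 integrins were called in any comparison. Together these were 8 of 70 members (11.4%), where 9.9% of all 14217 genes were called in at least 1 of the 16 comparisons. Of the 32 further probe sets of 24 members limma called 0. With 16 comparisons each, 512 values in all, 26 of these probe sets had an unadjusted p under 0.05 at least once.

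Counts of members are given beside the share called among all 14217 genes, each read from 1 probe set. At 12 h after IONT 1 member was called (1.43%), where 1.29% of all genes were called. At 24 h 2 members (2.86%) stood against 0.499%, at 48 h 3 members (4.29%) against 2.64%, and at 3 d 1 member against 0.795%. At 7 d 1 member stood against 1.2% of all genes, and at 15 d 2 members against 1.81%. After IONC the 3 members called at 12 h stood against 5.22% (2 members against 6.63% without IONC 12 h replicate 2), the 1 member at 24 h against 1.04% and the 1 member at 48 h against 1.54%. At 3 d and 7 d after IONC limma called 0 members, where 0.394% and 0.689% of all genes were called, and 11 and 4 members had an unadjusted p under 0.05. The median log2 change of the 70 members lay between -0.07 at 15 d after IONT and 0.14 at 12 h after IONC, and the median over all genes in these comparisons was 0.01 and -0.08.

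**Figure D1:**
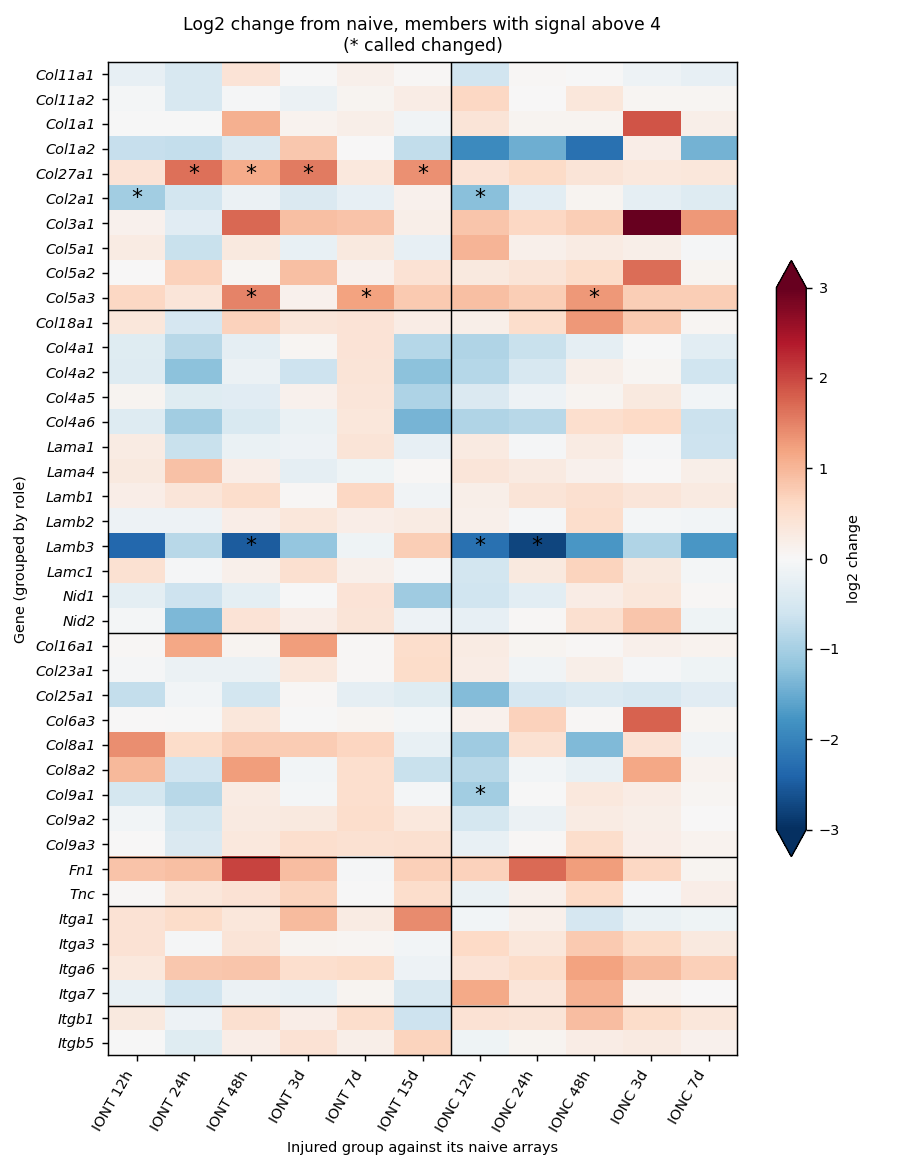
Log2 change from naïve (colour) for the 40 members with a signal above 4 in at least 2 arrays, 1 row per gene and 1 column per injured group, with lines between the roles and an asterisk at each called value. Called values are scattered over single genes, and no role has a column of them. Colours end at 3, which the change of Col3a1 at 3 d after IONC passes.

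A pair of vitreous collagen genes fell at 12 h. Col2a1 codes for the chain of type II collagen, the main fibril of the vitreous, and Col9a1 for a chain of type IX collagen, which coats those fibrils. The Col2a1 signal was 9.09, 9.10 and 8.88 in naïve replicates 1 to 3, 7.85, 7.99 and 8.07 at 12 h after IONT, and 8.06, 6.96 and 8.25 at 12 h after IONC. Every injured array lay below every naïve array at 12 h in both lesions. Col2a1 fell by 1.05 after IONT (95% interval -1.49 to -0.61, adjusted p = 0.00588) and by 1.26 after IONC (-1.71 to -0.82, adjusted p = 0.00037). Without IONC 12 h replicate 2 the IONC change was -0.86 (adjusted p = 0.000525), so the call stood without that array. At 24 h the 3 IONC arrays read 8.85, 8.57 and 8.71, and at 7 d the IONT arrays read 8.73, 8.83 and 8.76, each under the lowest of naïve replicates 1 to 3. The IONC arrays at 7 d, from 8.52 to 8.71, lay under it too. At 48 h Col2a1 overlapped those naïve arrays after both lesions, at 9.08, 8.94 and 8.51 after IONT and 8.79, 9.35 and 9.15 after IONC, and it also did at 3 d after IONC, at 8.90, 8.70 and 8.69. Naïve replicates 4 and 5 ran from 9.35 to 9.38. The IONT arrays lay below them at 24 h (8.73 to 8.90) and 3 d (8.74 to 9.14) and above them at 15 d (9.40 to 9.59). These changes were not called. The Col2a1 value was 7.97 ± 0.11 (SD, n = 3) at 12 h after IONT and 8.77 at 7 d, a difference of 0.80 that was not called (adjusted p = 0.0392).

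The Col9a1 signal was 10.21, 10.10 and 10.15 in naïve replicates 1 to 3, 9.54, 9.56 and 9.81 at 12 h after IONT and 9.48, 8.45 and 9.37 at 12 h after IONC. All 6 injured arrays at 12 h lay below the naïve arrays. Col9a1 fell by 1.05 at 12 h after IONC (95% interval -1.53 to -0.57, adjusted p = 0.00459), while its change of -0.52 at 12 h after IONT was not called (adjusted p = 0.555). At 24 h after IONC it read 10.29, 10.10 and 10.05, which overlapped the naïve arrays. At 24 h after IONT it ran from 9.77 to 9.93, below the 10.57 to 10.8 of naïve replicates 4 and 5, and was not called. The Col9a1 call rested on IONC 12 h replicate 2, without which the change was -0.73 (adjusted p = 0.0343), and it also ended without any 1 of naïve replicates 1 to 3 (adjusted p 0.0168 to 0.0215). The Col2a1 call at 12 h after IONT ended without any 1 of the 6 arrays compared (adjusted p 0.0146 to 0.0409), and both Col2a1 calls ended when its 3 probe sets were averaged (changes of -0.40 and -0.30).

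Col5a3, a fibrillar collagen gene of type V that takes part in fibril assembly, was the member with called increases after both lesions. Its promoter window is shown for that reason. RefSeq places the window of 250 bases before to 50 after its start at chr8:27625899-27626198 of GRCr8, minus strand, and capitals mark the 3 matches to the GC box, searched as GGGCGG on both strands.

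Col5a3: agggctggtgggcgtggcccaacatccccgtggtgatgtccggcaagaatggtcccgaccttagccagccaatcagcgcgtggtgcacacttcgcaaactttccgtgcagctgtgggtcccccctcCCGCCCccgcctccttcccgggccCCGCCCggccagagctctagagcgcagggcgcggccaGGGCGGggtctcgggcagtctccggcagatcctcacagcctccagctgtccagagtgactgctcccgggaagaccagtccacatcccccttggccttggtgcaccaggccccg

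A GC box by these letters stood in 33.1% of the 33469 promoter windows of the table and in 31 of the 53 members with a window, as a description of the letters alone. The former share counts windows, while a member counted if any of its windows matched, so the shares are in unlike units. The Col5a3 signal was 8.63, 8.45 and 8.65 in naïve replicates 1 to 3 and 9.81, 10.16 and 10.21 at 48 h after IONT. At 7 d after IONT it was 9.74, 9.74 and 9.89, and at 48 h after IONC 10.003, 10.32 and 9.31. All of these injured arrays lay above those 3 naïve arrays. Col5a3 rose by 1.48 at 48 h after IONT (95% interval 0.98 to 1.98, adjusted p = 0.00039), by 1.21 at 7 d after IONT (0.71 to 1.71, adjusted p = 0.00556) and by 1.30 at 48 h after IONC (0.80 to 1.80, adjusted p = 0.00258). Its arrays also lay above the naïve arrays in the other 5 groups compared with replicates 1 to 3, by 0.61 to 0.90, and these changes were not called.

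These calls depended on which naïve arrays were used. Naïve replicates 4 and 5 read 9.56 and 10.18, so that the IONT 48 h and 7 d arrays overlapped them, and with all 5 naïve arrays as 1 group the changes were 0.97, 0.69 and 0.78 and were not called (adjusted p 0.059, 0.225 and 0.165). The IONT arrays at 24 h and 3 d also overlapped replicates 4 and 5. At 15 d after IONT they lay above both, from 10.24 to 11.07, and were not called. With 1 naïve group Col5a3 would be called higher at 15 d (1.56, adjusted p = 0.00385). The call at 7 d after IONT ended without any 1 of the 6 arrays compared (adjusted p 0.0199 to 0.0376), and the call at 48 h after IONC without any 1 of naïve replicates 1 to 3 or of IONC 48 h replicates 1 and 2 (adjusted p 0.0104 to 0.0255).

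Col27a1, which codes for a fibrillar collagen first known from cartilage, and Col22a1, which codes for a collagen of tissue junctions, rose after IONT. The Col27a1 signal was 3.81 and 4.55 in naïve replicates 4 and 5 and 5.70 and 5.99 at 24 h, 5.44 and 6.06 at 3 d, and 6.20 and 4.93 at 15 d. In naïve replicates 1 to 3 it was 2.33, 3.10 and 2.93 against 3.95, 3.88 and 3.91 at 48 h after IONT. The injured arrays lay above their naïve arrays in each of these comparisons. Col27a1 rose by 1.66 at 24 h (95% interval 1.05 to 2.27, adjusted p = 0.00216), by 1.12 at 48 h (0.63 to 1.62, adjusted p = 0.00592), by 1.57 at 3 d (0.96 to 2.18, adjusted p = 0.0035) and by 1.38 at 15 d (0.77 to 1.99, adjusted p = 0.00639). In the 15 IONC arrays it stayed between 2.99 and 3.77, and no IONC comparison called it. The IONT arrays at 12 h (3.11 to 3.40) and 7 d (3.03 to 3.19) lay in the same range and were not called. No direct contrast of the lesions, run at 12 h, 48 h and 7 d, called Col27a1.

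Signals under about 4 lie near the floor of the arrays. Without naïve replicate 4 the Col27a1 calls at 24 h, 3 d and 15 d ended, with changes of 1.29, 1.197 and 1.01 (adjusted p 0.0863, 0.139 and 0.206). They ended too without IONT 24 h replicate 1 or 2, IONT 3 d replicate 2 and IONT 15 d replicate 1, respectively, the last with a change of 0.74 (adjusted p = 0.267). The 48 h call ended without any 1 of the 3 IONT 48 h arrays or of naïve replicates 1 and 3 (adjusted p 0.0154 to 0.0648), and was 0.57 with all 5 naïve arrays as 1 group (adjusted p = 0.387).

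Col22a1 read 2.47 and 2.71 in naïve replicates 4 and 5 and 4.59 and 3.80 at 15 d after IONT. Its increase of 1.60 (95% interval 1.24 to 1.97, adjusted p = 2.36e-06) had the smallest adjusted p of the called values. At 24 h it read 3.60 and 3.22 and at 3 d 3.15 and 3.53, also above both naïve arrays, with changes of 0.82 and 0.75 that were not called (adjusted p 0.0116 and 0.0222). In the 27 arrays of the other set it stayed between 2.41 and 2.88. Col22a1 was 1 of the 30 members without a signal above 4 in 2 arrays, and only IONT 15 d replicate 1 exceeded 4. The fit used 1 estimate of its spread over all 35 arrays, while the SD of its 2 arrays at 15 d was 0.55. With separate limma fits for the 2 sets of naïve arrays the increase at 15 d was not called (adjusted p = 0.1145).

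**Figure D2:**
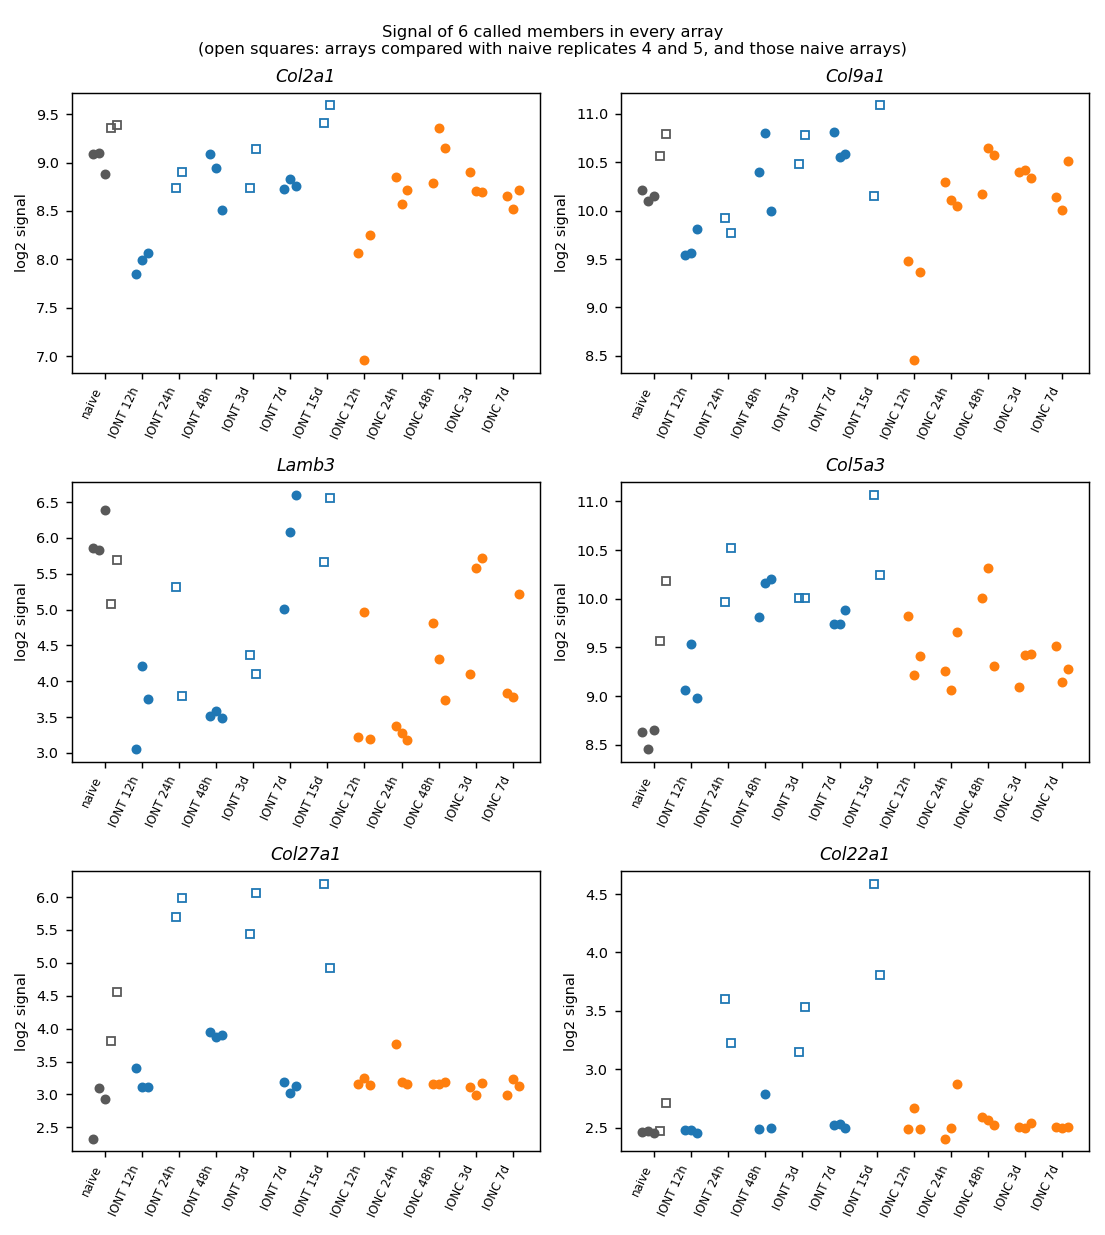
Log2 signal of 6 called members in each of the 35 arrays, 1 point per array, by group on the horizontal axis, with naïve in grey, IONT in blue and IONC in orange. Open squares are naïve replicates 4 and 5 and the arrays compared with them. Col2a1 and Col9a1 are low at 12 h in both lesions, and Col27a1 and Col22a1 are high mainly among the open squares.

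The fibrillar collagens of connective tissue, Col1a1 and Col1a2 of type I, Col3a1 of type III and Col5a2 of type V, with the type VI chain Col6a3, were named after their values were seen, and none was called. At 3 d after IONC Col3a1 read 7.37, 5.90 and 3.30, against 3.06, 2.14 and 1.82 in naïve replicates 1 to 3. Col1a1 read 6.29, 4.11 and 2.65 against 2.51, 2.48 and 2.43, and Col6a3 read 6.57, 2.90 and 2.22 against 2.15, 2.12 and 2.12. The 3 replicates of this group thus ran from near the naïve level to far above it. Their mean changes were 3.18 for Col3a1 (95% interval 1.83 to 4.53, adjusted p = 0.0154), 1.88 for Col1a1 (0.91 to 2.84, adjusted p = 0.0573), 1.77 for Col6a3 (0.44 to 3.09, adjusted p = 0.32) and 1.67 for Col5a2 (0.50 to 2.83, adjusted p = 0.257). The mean of Col1a2 at 3 d after IONC, 6.43, stayed near that of naïve replicates 1 to 3. Its arrays at 3 d after IONC spread widely, from 4.82 to 8.61 with replicate 1 highest, against 5.99 to 6.54 in naïve replicates 1 to 3. Its mean was 6.24 in those naïve arrays and lower in the other IONC groups. There it was 4.34 at 12 h, 4.79 at 24 h, 4.00 at 48 h and 4.83 at 7 d. At 48 h after IONT Col1a1 read 3.40, 3.80 and 3.44, above naïve replicates 1 to 3 in all 3 arrays, a change of 1.08 that was not called (95% interval 0.11 to 2.04, adjusted p = 0.329).

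The same arrays carried connective tissue and pigment cell transcripts. Decorin (Dcn), a proteoglycan of fibroblasts, read 12.18 and 10.99 in IONC 3 d replicates 1 and 2, 10.73 in IONT 48 h replicate 1 and 7.81 in IONC 24 h replicate 2, and 2.07 to 4.82 in the other 31 arrays. Pmel, a melanosome protein, was 10.5 to 11.8 in these 4 arrays and 3.73 to 9.16 in the others. In the 4 arrays Col3a1 ran from 3.18 to 7.37 and Col6a3 from 2.90 to 6.57, and in the other arrays from 1.80 to 4.51 and from 2.07 to 2.52. Col6a3 in these 4 arrays lay above all others. Col1a2 ran from 5.40 to 8.61 in the 4 arrays (median 6.74) and from 3.37 to 6.54 in the others (median 5.15). Without the 4 arrays the Col1a1 change at 48 h after IONT was 1.15 and would be called (adjusted p = 0.0022). The summed level of the 8 mural and fibroblast markers measured was 8.85 to 12.8 at 3 d after IONC and 8.52 to 8.58 in naïve replicates 1 to 3. Of these markers 2 stayed below 4 in all arrays at 3 d after IONC and 5 in all of naïve replicates 1 to 3. The part of these transcripts in the collagen values was not tested.

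**Figure D3:**
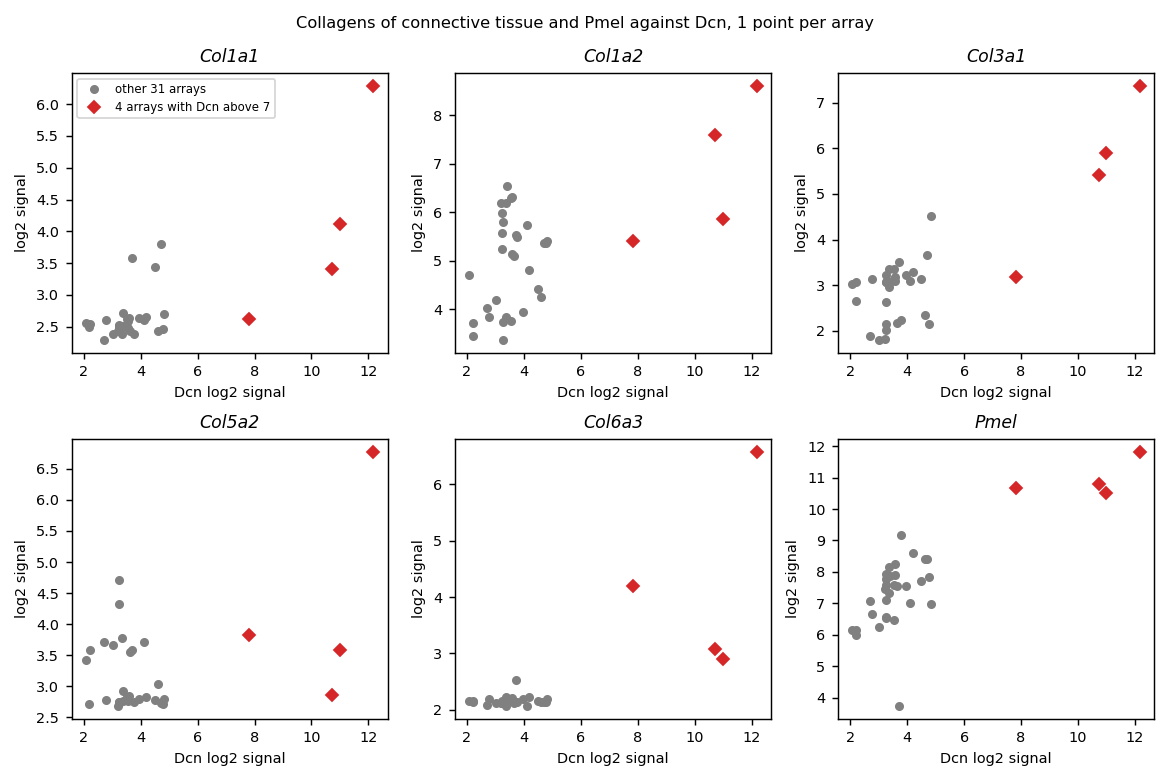
Log2 signal of 5 connective tissue collagens and of Pmel (vertical axes) against that of Dcn (horizontal axes), 1 point per array. The 4 arrays with a Dcn signal above 7 are red diamonds and the other 31 are grey points. The array with the highest Dcn signal, IONC 3 d replicate 1, has the highest signal of each gene shown.

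The type IV collagen genes, named after their values were seen, were not called in any comparison. Col4a1 and Col4a2 code for the chains of the common type IV network and start head to head. RefSeq places the Col4a1 window at chr16:84885347-84885646 of GRCr8, plus strand, and the Col4a2 window at chr16:84885471-84885770, minus strand. The start sites lie 77 bases apart, and the windows share the 176 bases in capitals, shown because one stretch of sequence serves as the promoter window of both genes.

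Col4a1: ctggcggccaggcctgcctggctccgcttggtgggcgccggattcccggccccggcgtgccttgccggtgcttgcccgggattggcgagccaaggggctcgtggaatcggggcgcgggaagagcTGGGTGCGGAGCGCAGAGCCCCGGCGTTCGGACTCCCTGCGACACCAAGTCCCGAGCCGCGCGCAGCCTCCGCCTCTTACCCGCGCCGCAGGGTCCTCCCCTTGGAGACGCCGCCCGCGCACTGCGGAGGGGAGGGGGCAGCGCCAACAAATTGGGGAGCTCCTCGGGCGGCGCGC

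At 15 d after IONT Col4a1 read 8.55 and 9.03 against 9.40 and 9.89 in naïve replicates 4 and 5, and Col4a2 read 7.56 and 7.31 against 8.58 and 8.75. Col4a5 read 8.28 and 8.64 against 9.41 and 9.35, and Col4a6 read 5.55 and 6.37 against 7.50 and 7.19. Every 15 d array lay below both naïve arrays for each of these 4 genes. The changes were -1.23 for Col4a2 (95% interval -2.10 to -0.37, adjusted p = 0.123), -0.92 for Col4a5 (-1.60 to -0.24, adjusted p = 0.154) and -1.38 for Col4a6 (-2.42 to -0.35, adjusted p = 0.163). Nid1, which codes for a nidogen that bridges laminin and type IV collagen, read 8.66 and 9.28 against 10.03 and 10.05, a change of -1.07 that was not called (-1.77 to -0.37, adjusted p = 0.0871).

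These 4 genes also read below their naïve arrays at 24 h after IONT. Col4a2 read 7.78 and 7.07, Col4a1 9.01 and 8.60, Col4a5 9.17 and 8.84 and Col4a6 6.41 and 6.22. The changes were -1.24 for Col4a2 (95% interval -2.10 to -0.38, adjusted p = 0.174), -0.84 for Col4a1 (adjusted p = 0.591), -0.37 for Col4a5 (adjusted p = 1) and -1.03 for Col4a6 (adjusted p = 0.546), none of them called.

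At 7 d after IONT every Col4a1, Col4a2, Col4a5 and Col4a6 array lay above naïve replicates 1 to 3. Col4a1 ran from 10.82 to 11.03, where the highest of those naïve arrays read 10.67. At 3 d Col4a2 lay below naïve replicates 4 and 5, Col4a5 lay above both, and Col4a1 and Col4a6 overlapped them. At 12 h Col4a1 lay below its naïve arrays and the others overlapped theirs, and at 48 h all 4 genes overlapped. None of these changes was called. With all 5 naïve arrays as 1 group, Col4a2 would be called lower at 24 h after IONT (-1.52, adjusted p = 0.00943). At 15 d after IONT Col4a2 (-1.52, adjusted p = 0.00656), Col4a5 (-1.32, adjusted p = 0.00476) and Nid1 (-1.60, adjusted p = 0.00179) would then be called lower. The naïve replicates 4 and 5 already lay 0.86 (Col4a1) and 0.88 (Nid1) under replicates 1 to 3 on the log2 scale. Lens transcripts moved beside these genes, and the lens capsule is itself rich in type IV collagen. The summed level of the 5 lens markers was 14.01 to 14.13 at 15 d after IONT and 15.70 to 16.03 in naïve replicates 4 and 5, with 1 and 0 of them below 4 in every array of the group, and its part in the type IV collagen values was not tested.

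Nid1 read 11.11, 10.70 and 10.94 in naïve replicates 1 to 3, 10.44, 10.37 and 11.09 at 12 h and 11.56, 11.30 and 11.10 at 7 d after IONT, and 10.90, 10.90 and 11.06 at 7 d after IONC. After IONT it read 9.66 and 9.17 at 24 h, 10.9995, 11.11 and 9.74 at 48 h and 10.23 and 9.82 at 3 d. After IONC it read 10.51, 9.79 and 10.69 at 12 h, 10.61, 10.63 and 10.53 at 24 h, 11.01, 11.05 and 11.34 at 48 h and 11.40, 11.07 and 11.29 at 3 d. At 24 h after IONT and 12 h after IONC every Nid1 array lay below its naïve arrays, with changes of -0.63 (adjusted p = 0.67) and -0.59 (adjusted p = 0.1), and the latter was -0.32 without IONC 12 h replicate 2 (adjusted p = 0.795). The lowest Nid1 signals of the series were those of the 24 h and 15 d IONT arrays, in the set whose naïve arrays were also lower. Nid2, the second nidogen, read 6.37, 6.43 and 6.84 in naïve replicates 1 to 3, 7.47 and 7.66 in replicates 4 and 5 and 6.26 and 6.19 at 24 h after IONT, a change of -1.34 that was not called (95% interval -2.36 to -0.32, adjusted p = 0.25). In the other 10 comparisons with naïve retinas Nid2 differed by -0.25 to 0.82, none of them called. After IONT it read 6.91, 6.30 and 6.28 at 12 h, 7.95, 7.27 and 5.63 at 48 h, 7.76 and 7.75 at 3 d, 6.69, 7.34 and 6.77 at 7 d and 6.85 and 7.98 at 15 d. After IONC it read 6.30, 6.46 and 6.14 at 12 h, 6.54, 7.03 and 6.21 at 24 h, 7.26, 7.03 and 6.80 at 48 h, 7.96, 7.41 and 6.74 at 3 d and 6.37, 6.05 and 6.86 at 7 d. Without IONC 12 h replicate 2 the change at that time was -0.33 (adjusted p = 0.999).

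**Figure D4:**
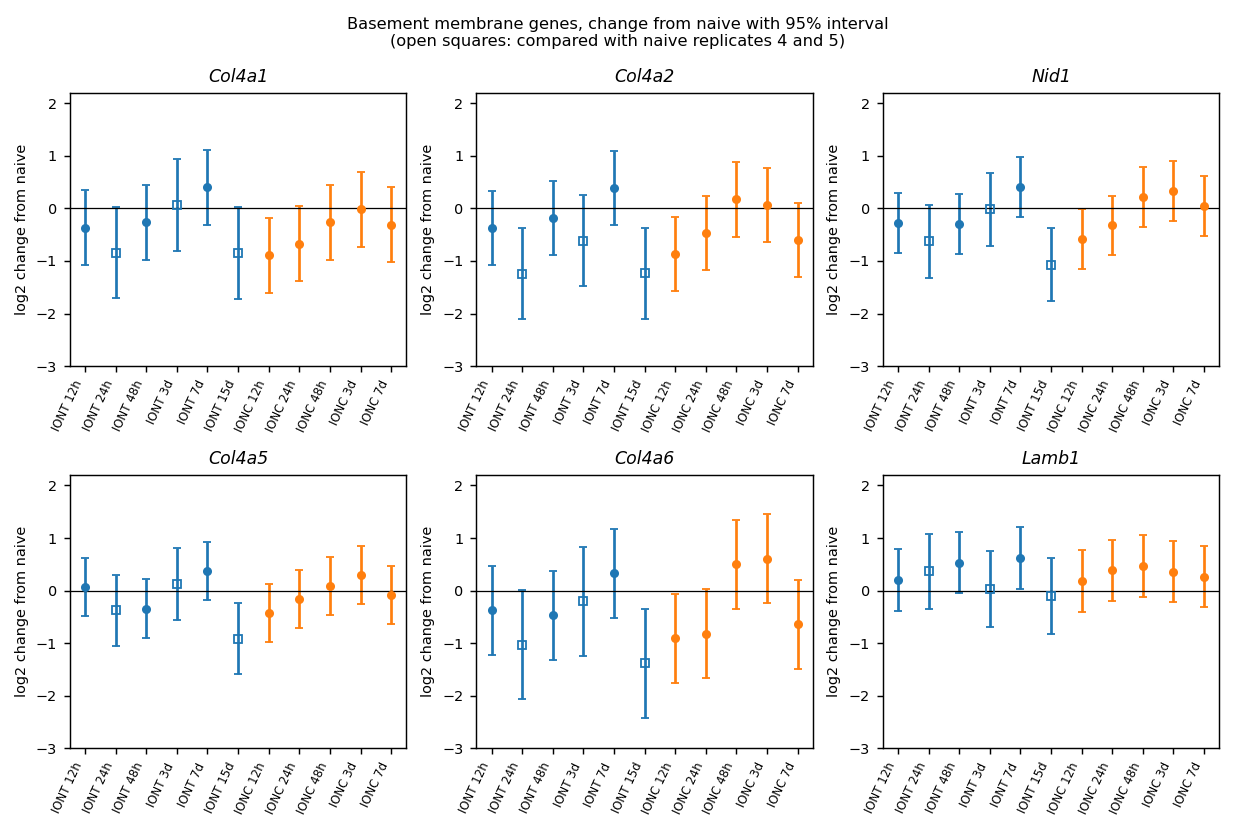
Log2 change from naïve with its 95% interval for 6 basement membrane genes in the 6 IONT groups (blue) and 5 IONC groups (orange). Open squares mark the groups compared with naïve replicates 4 and 5. Most intervals include 0, and the estimates for the type IV collagen genes and Nid1 are negative at 15 d after IONT.

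Lamb3 codes for a laminin beta chain of epithelial basement membranes, and it was the basement membrane gene called lower after both lesions. Its promoter window is shown because Lamb3 fell after both lesions. RefSeq places it at chr13:107362303-107362602 of GRCr8, plus strand, and capitals mark a full cyclic AMP response element, searched as TGACGTCA, which reads the same on both strands.

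Lamb3: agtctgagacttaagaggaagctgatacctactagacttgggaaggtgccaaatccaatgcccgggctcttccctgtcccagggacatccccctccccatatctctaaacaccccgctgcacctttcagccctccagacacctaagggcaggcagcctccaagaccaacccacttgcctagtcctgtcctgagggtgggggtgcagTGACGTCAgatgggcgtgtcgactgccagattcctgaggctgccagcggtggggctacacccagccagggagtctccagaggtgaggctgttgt

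These letters stood in 1.83% of all promoter windows and in a window of 2 of the 53 members with one, Lamb3 and Col24a1. A member counted if any of its windows matched, so these shares are in unlike units. The Lamb3 signal was 5.86, 5.83 and 6.39 in naïve replicates 1 to 3, 3.51, 3.58 and 3.49 at 48 h after IONT, 3.22, 4.97 and 3.20 at 12 h after IONC and 3.38, 3.28 and 3.18 at 24 h after IONC. All of these arrays lay below the naïve arrays. Lamb3 fell by 2.50 at 48 h after IONT (95% interval -3.58 to -1.42, adjusted p = 0.00467), by 2.23 at 12 h after IONC (-3.31 to -1.15, adjusted p = 0.0071) and by 2.75 at 24 h after IONC (-3.83 to -1.67, adjusted p = 0.00374). Most of these injured signals lay under 4, near the floor of the arrays, so the sizes of the changes are not exact.

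At 12 h after IONT Lamb3 read 3.05, 4.21 and 3.75, also below every naïve array, and the change of -2.36 missed the threshold (adjusted p = 0.013). At 7 d after IONT it read 5.01, 6.09 and 6.60 and overlapped the naïve arrays, and at 7 d after IONC it read 3.84, 3.78 and 5.22, below them. The difference between the lesions at 7 d, -1.62, was not called (95% interval -2.70 to -0.54, adjusted p = 0.522). The Lamb3 call at 12 h after IONC was -2.82 without IONC 12 h replicate 2 (adjusted p = 0.000979). Its calls at 48 h after IONT and 24 h after IONC ended without any 1 of the 6 arrays compared (adjusted p 0.0139 to 0.0337), with changes of -2.32 to -2.85, and the 12 h call ended without any 1 of 16 arrays (adjusted p 0.00861 to 0.0398, with B at or below 0 where p passed). These were naïve replicates 1 to 3, IONT 12 h replicate 3, all 3 IONT 48 h arrays, both IONT 3 d arrays, IONT 7 d replicate 2, IONC 12 h replicates 1 and 3, all 3 IONC 24 h arrays and IONC 48 h replicate 2.

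Lama5, which codes for a laminin alpha chain of vessel and retinal basement membranes, read 3.08 and 2.85 in naïve replicates 4 and 5 and 2.17 and 2.01 at 24 h after IONT. All other arrays lay between 2.79 and 3.68, so the 2 arrays at 24 h were the lowest of the series. Lama5 fell by 0.88 (95% interval -1.16 to -0.60, adjusted p = 0.000375) at a signal near the floor of the arrays, and it was 1 of the 30 members without a signal above 4 in 2 arrays. The call ended without naïve replicate 4 (-0.77, adjusted p = 0.017) and with the mean of its probe sets (-0.30, adjusted p = 0.0539).

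The type VIII collagens showed the one called difference between the lesions. Col8a1 codes for a short-chain collagen of endothelial basement membranes and Bruch's membrane. At 12 h it read 7.00, 7.30 and 7.28 after IONT and 5.76, 4.27 and 4.16 after IONC, against 5.82, 5.78 and 5.82 in naïve replicates 1 to 3. All IONT arrays lay above and all IONC arrays below the naïve arrays. Col8a1 was lower after IONC than after IONT by 2.46 on the log2 scale (95% interval -3.37 to -1.56, adjusted p = 0.00187), which was the 1 of 70 members called where 1.62% of all genes were called. Neither change from naïve was called, with 1.39 after IONT (0.48 to 2.29, adjusted p = 0.148) and -1.08 after IONC (-1.98 to -0.17, adjusted p = 0.0848). At 48 h Col8a1 read 7.37, 6.91 and 5.42 after IONT and 4.34, 4.90 and 4.20 after IONC, a difference of -2.09 that was not called (-2.99 to -1.18, adjusted p = 0.0312).

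Some pigment epithelium transcripts also read low in the same IONC groups. Rpe65, the visual cycle isomerase of the pigment epithelium, read 6.63, 4.84 and 5.06 at 12 h after IONC, 8.46, 8.45 and 6.82 at 12 h after IONT and 5.29, 6.58 and 6.41 at 48 h after IONC, against 7.49, 7.78 and 7.07 in naïve replicates 1 to 3. The summed level of 5 pigment epithelium markers was 6.35 to 9.22 at 12 h after IONC and 9.47 to 10.6 at 12 h after IONT. It was 9.29 to 9.66 in naïve replicates 1 to 3, and the 6.35 was that of IONC 12 h replicate 2. In each of these groups 2 of the 5 lay below 4 in every array. Against naïve, 2 of the 5 had a positive change at 12 h after IONC and 2 at 48 h, and 0 were called at either time. In the direct contrast of the lesions at 12 h, 1 of the 5, Rpe65, was called lower after IONC, where 1.62% of all genes were called. The median change of the 5 in that contrast was -2.06, and 2 of them were positive. Col8a2, the partner chain of Col8a1, named after its values were seen, read 6.23, 4.504 and 5.27 at 12 h after IONC and 7.08, 7.24 and 7.14 at 12 h after IONT. Each of its 3 IONT arrays lay above each of its IONC arrays, as for Col8a1. The part of pigment epithelium in these values was not tested. The Col8a1 call ended without IONC 12 h replicate 2 (-2.24, adjusted p = 0.0135), IONT 12 h replicate 2 (-2.41, adjusted p = 0.0146) or IONT 12 h replicate 3 (-2.42, adjusted p = 0.0117).

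Between the lesions at 48 h and 7 d limma called 0 members, where 0.148% and 0.0563% of all genes were called, and 9 and 6 members had an unadjusted p under 0.05. From 12 h to 7 d limma likewise called 0 members after IONT and 0 after IONC, where 1.73% and 0.732% of all genes were called, and 9 and 10 members had an unadjusted p under 0.05. Among these Col9a1 was nearest to the threshold in both lesions, at 9.64 and 10.65 after IONT (a difference of 1.02, adjusted p = 0.0136) and at 9.10 and 10.22 after IONC (1.12, adjusted p = 0.0112). Lamb3 was 3.67 at 12 h and 5.90 at 7 d after IONT, a difference of 2.23 (95% interval 1.15 to 3.31, adjusted p = 0.0159).

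**Figure D5:**
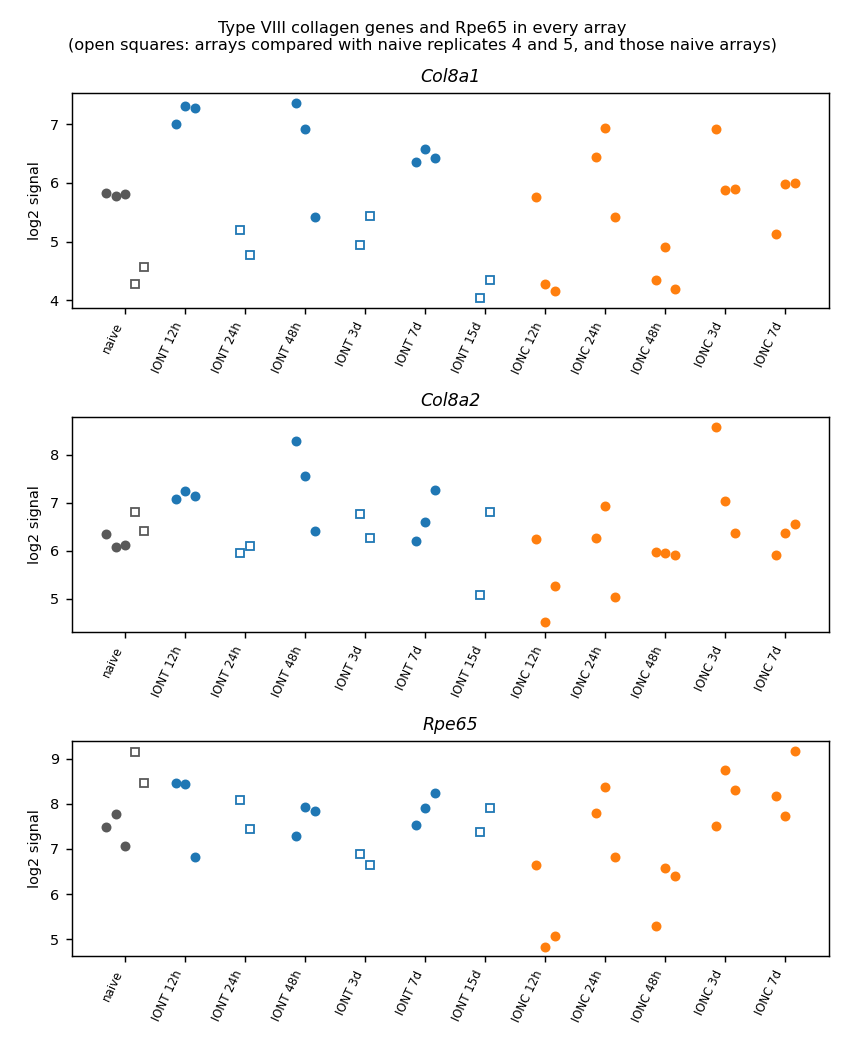
Log2 signal of Col8a1, Col8a2 and the pigment epithelium gene Rpe65 in each of the 35 arrays, by group, with naïve in grey, IONT in blue and IONC in orange. Open squares are naïve replicates 4 and 5 and the arrays compared with them. At 12 h Col8a1 lies between 7.00 and 7.30 after IONT and between 4.16 and 5.76 after IONC.

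Fibronectin and tenascin C, matrix glycoproteins of wound repair, were not called in any comparison. Fn1 read 5.37, 5.28 and 5.23 in naïve replicates 1 to 3 and 5.41 and 5.41 in replicates 4 and 5. After IONT it read 6.10, 5.75 and 6.61 at 12 h, 6.20 and 6.42 at 24 h, 7.68, 7.91 and 6.39 at 48 h, 6.25 and 6.41 at 3 d, 5.40, 4.88 and 5.51 at 7 d and 6.41 and 5.84 at 15 d. All IONT arrays except those at 7 d thus lay above all 5 naïve arrays. After IONC Fn1 read 6.96, 4.19 and 6.83 at 12 h, 6.81, 7.81 and 6.33 at 24 h, 8.17, 5.81 and 5.68 at 48 h, 7.13, 6.10 and 4.53 at 3 d and 6.34, 5.31 and 4.45 at 7 d. The low value at 12 h was that of replicate 2, the array that stood apart. Without it the Fn1 change at 12 h after IONC was 1.60, also not called (adjusted p = 0.181). The largest Fn1 changes were 2.03 at 48 h after IONT (95% interval 0.59 to 3.48, adjusted p = 0.138) and 1.69 at 24 h after IONC (0.25 to 3.14, adjusted p = 0.375).

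Tnc read 7.40, 7.56 and 7.44 in naïve replicates 1 to 3 and 7.52 and 7.18 in replicates 4 and 5. At 48 h it read 7.94, 8.05 and 7.71 after IONT and 8.13, 7.95 and 8.10 after IONC, all above the naïve arrays. At 12 h after IONC it read 7.90, 5.68 and 8.19, with replicate 2 far below the others, and without that array the change was 0.58 (adjusted p = 0.0197), not called. In the other IONT groups it read 7.48, 7.62 and 7.40 at 12 h, 7.77 and 7.59 at 24 h, 7.94 and 8.07 at 3 d, 7.42, 7.53 and 7.42 at 7 d and 7.95 and 7.82 at 15 d. In the other IONC groups it read 7.83, 7.54 and 7.52 at 24 h, 7.50, 7.64 and 7.14 at 3 d and 8.02, 7.44 and 7.54 at 7 d. The changes were 0.43 at 48 h after IONT (95% interval -0.30 to 1.16, adjusted p = 0.957) and 0.59 at 48 h after IONC (-0.13 to 1.32, adjusted p = 0.604). Across the 11 comparisons with naïve retinas Tnc differed by -0.21 to 0.66.

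None of the 15 integrin subunits was called by limma. Of their 240 values over the 16 comparisons, 28 had an unadjusted p under 0.05, spread over 14 of the subunits. Itgb1, the beta subunit shared by most receptors for laminin, collagen and fibronectin, read 8.92, 8.78 and 8.81 in naïve replicates 1 to 3, 8.74 and 8.82 in replicates 4 and 5, and 10.28, 9.41 and 9.61 at 48 h after IONC. Those 3 arrays lay above all naïve arrays. The change of 0.93 at 48 h after IONC was not called (95% interval 0.24 to 1.62, adjusted p = 0.165). At 15 d after IONT Itgb1 read 8.03 and 8.27, below both naïve arrays, a change of -0.63 (-1.48 to 0.22, adjusted p = 0.703). In the other groups it read 9.26, 8.73 and 9.43 at 12 h, 8.80 and 8.44 at 24 h, 9.52, 9.42 and 9.01 at 48 h, 9.21 and 8.76 at 3 d and 9.54, 9.28 and 9.25 at 7 d after IONT. After IONC it read 9.94, 8.19 and 9.66 at 12 h, 9.37, 9.56 and 8.75 at 24 h, 9.94, 9.19 and 9.005 at 3 d and 9.56, 8.91 and 9.04 at 7 d. Without IONC 12 h replicate 2 the Itgb1 change at 12 h was 0.96, not called (adjusted p = 0.0348).

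Itga6, the alpha subunit of laminin receptors, read 6.90, 6.76 and 6.80 in naïve replicates 1 to 3 and 7.17 and 6.96 in replicates 4 and 5. After IONT it read 7.31, 6.72 and 7.36 at 12 h, 8.40 and 7.35 at 24 h, 7.80, 7.65 and 7.55 at 48 h, 8.09 and 7.05 at 3 d, 7.59, 7.35 and 7.20 at 7 d and 7.03 and 6.81 at 15 d. After IONC it read 8.25, 5.30 and 8.14 at 12 h, 7.70, 7.52 and 6.92 at 24 h, 8.87, 7.70 and 7.54 at 48 h, 8.52, 7.66 and 7.15 at 3 d and 7.93, 7.36 and 7.32 at 7 d. From 24 h to 7 d after IONC every Itga6 array lay above naïve replicates 1 to 3, with the largest change at 48 h, 1.21 (95% interval 0.13 to 2.30, adjusted p = 0.301). At 12 h after IONC, without replicate 2, the Itga6 change was 1.38, not called (adjusted p = 0.0266). The other integrins with a signal above 4 in at least 2 arrays were Itga1, Itga3, Itga7 and Itgb5, and their changes against naïve retinas ranged from -0.60 to 1.43. The remaining 9 integrins did not pass 4 in 2 arrays.

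Genes that work with the members were tested in the same way. Of 39 measured matrix partners, fibromodulin (Fmod), a collagen-binding proteoglycan, fell by 1.69 at 24 h after IONT (adjusted p = 0.00242), and tenascin R (Tnr), a matrix glycoprotein of neural tissue, fell by 1.69 at 12 h after IONC (adjusted p = 0.00328), or by 1.96 without IONC 12 h replicate 2 (adjusted p = 0.00161). The 1 partner called at each of these times (2.56%) stood against 0.499% and 5.22% of all genes, and none of the other partners was called in the 16 comparisons. Of 25 measured integrin adhesion adaptors, talin 1 (Tln1) rose by 0.93 (adjusted p = 0.00181) and zyxin (Zyx) by 1.79 (adjusted p = 0.00633) at 48 h after IONC, and talin 2 (Tln2) fell by 1.21 at 12 h after IONC (adjusted p = 0.00372). The 2 adaptors called at 48 h (8%) stood against 1.54% of all genes and the 1 at 12 h (4%) against 5.22%. The Tln2 call ended without IONC 12 h replicate 2 (-0.89, adjusted p = 0.0288). At 48 h after IONC the leukocyte and microglia markers had a summed level of 9.55 to 9.98, against 7.49 to 7.67 in naïve replicates 1 to 3, with 5 and 8 of the 12 below 4 in every array of the group, and their part in the adaptor values was not tested.

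Of the 70 members, 30 had no signal above 4 in 2 arrays, among them 17 collagens, 4 laminins and 9 integrins. At this level the arrays can miss a moderate change, although Col22a1 and Lama5 were called there. A gene that was not called is not shown to be unchanged.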

How the data were processed

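Retinal RNA was measured on Affymetrix RAE230.2 arrays. The authors deposited 1 log2 signal per probe set and array from GCRMA, a method that corrects background from probe sequence, equalizes the distributions of the arrays and combines the probes. The upstream versions of GCRMA and limma, and any joint normalization of the arrays, were not given in the sources used here. The values were used as deposited. Their array medians ran from 4.27 to 4.60, so the distributions were not fully equal. The SD over the probe sets of an array was 2.30 in IONC 12 h replicate 2 and 2.89 to 3.03 in the others. No 2 arrays held identical values.

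Of 31099 probe sets, 31042 were tested, without the 57 controls. In the platform annotation of 2016, 20826 carried 1 symbol, 436 several and 9780 none. All 70 member symbols were unchanged in RefSeq by gene number, and 53 members had a promoter window in the RefSeq table (GRCr8).

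A linear model with 13 coefficients, 1 for each injured group and 1 for each of the 2 sets of naïve arrays, was fitted with limma 3.58.1 (R 4.3.3) over the 35 arrays, leaving 22 residual degrees of freedom. P-values are from limma's moderated statistics with Benjamini-Hochberg adjustment over all tested probe sets within a comparison. A value was called at an adjusted p under 0.01, B above 0 and at least 1.2-fold, the thresholds of the study's methods. The 16 comparisons were the 11 injured groups against naïve, IONC against IONT at 12 h, 48 h and 7 d, and 7 d against 12 h within each lesion, where both groups belong to the same set. Summed marker levels are log2 of the sum of linear signals. The procedure was tested on simulated data.

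Members were named when called in at least 1 comparison. Signals in every array are given, in the text or a plot, for these (Lama5 by its range), for the member with the highest mean signal of each role, and for Fn1, Tnc, Nid1 and Nid2. Col1a1, Col1a2, Col3a1, Col5a2, Col6a3, Col8a2, the type IV collagen genes and the remaining integrins were named after their values were seen. The members and the lists of matrix partners, adaptors and cell type markers were chosen with earlier results of these data known. Alternatives were other call rules, other scalings, array weights, probe set choices, 1 naïve group, separate fits, the replicate number as a block and each array left out in turn. Leaving out the 4 arrays with a Dcn signal above 7 was chosen after seeing the data.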

Additional observations from a re-analysis of the deposited data

Results flagged for a closer look

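Col22a1 was far from its fellows in 1 naïve array. The 5 naïve arrays read 2.46, 2.47, 2.45, 2.47 and 2.71, and the gap of naïve replicate 5 to the nearest of the others was 0.934 of the whole range, above Dixon's critical value of 0.71 for 5 samples. Of 8 called members tested in this way 1 was flagged, and chance alone flags about 5% of groups. The increase of Col22a1 at 15 d after IONT was larger than this range.

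Col8a1 lay on opposite sides of naïve at 12 h in the lesions, above every array of naïve replicates 1 to 3 after IONT and below every one after IONC. The highest IONC array read 5.762 and the lowest of those naïve arrays 5.780, and neither change from naïve was called. The test of the difference itself gave -2.46 (IONC minus IONT, limma, adjusted p = 0.00187).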

How the results depend on the processing

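Of the 16 called values 0 changed direction under any of the 43 or 44 alternatives run for each, and each lost its call under at least 1, 13 of them without a single array. Col22a1 at 15 d and Col5a3 at 48 h after IONT and Col2a1 at 12 h after IONC lost it under 1 alternative each. Tnc at 12 h after IONC was -0.21 and not called, but 0.43 and called with array weights (adjusted p = 0.000154), a fit whose weights did not converge. The cause of the changes below was not tested.

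Members called, with IONT times first, changed as follows. At an adjusted p under 0.05 without B, the counts were 2 at 12 h and 2 at 3 d after IONT, 3 at 48 h and 1 at 3 d after IONC, 1 between the lesions at 48 h, and 3 (IONT) and 2 (IONC) for 7 d against 12 h. With all 5 naïve arrays as 1 group they were 6 at 24 h, 1 at 48 h, 3 at 3 d, 0 at 7 d and 6 at 15 d after IONT and 1 at 3 d after IONC. With array weights they were 2, 5, 0, 5 and 1 at 12 h, 48 h, 3 d, 7 d and 15 d after IONT, 17, 4 and 4 at 12 h, at 24 h and at 48 h after IONC, 6 at 3 d and 1 at 7 d, 6, 1 and 5 between the lesions at 12 h, 48 h and 7 d, and 6 (IONT) and 11 (IONC) for 7 d against 12 h. Centring on array medians gave 0 at 12 h, 0 at 7 d and 7 at 15 d after IONT and 1 for 7 d against 12 h after IONC. Cyclic loess gave 2 at 12 h and 2 at 7 d after IONT, 2 at 48 h after IONC and 3 for 7 d against 12 h after IONT. Averaging the probe sets of a gene gave 1 at 24 h after IONT and 1 for 7 d against 12 h after IONC. Testing only probe sets above 4 gave 2 at 12 h, 1 at 24 h and 1 at 15 d after IONT, 1 at 3 d after IONC, and 2 (IONT) and 1 (IONC) for 7 d against 12 h. Separate fits for the 2 sets, which have fewer residual degrees of freedom, gave 0 at 12 h, 24 h, 3 d and 15 d after IONT. Without the 4 arrays with a high Dcn signal the counts were 0 at 12 h, 0 at 3 d, 0 at 7 d and 1 at 15 d after IONT, and 1 at 12 h and 0 at 24 h after IONC.

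With the replicate number as a block, the count at 12 h after IONT was 0, since Col2a1 had an adjusted p of 0.0235. No block could be fitted for IONT at 24 h, 3 d and 15 d, which share no numbers with naïve replicates 4 and 5. The numbers do not pair the samples, with a median correlation of deviations of 0.0242 for the same number and -0.00878 for different numbers.

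With each array left out in turn, the counts after IONT ranged from 0 to 2 at 12 h, 0 to 3 at 24 h, 1 to 3 at 48 h, 0 to 2 at 3 d, 0 to 1 at 7 d and 1 to 3 at 15 d. After IONC they ranged from 1 to 4 at 12 h, 0 to 1 at 24 h, 0 to 3 at 48 h, 0 to 2 at 3 d and 0 to 0 at 7 d. Between the lesions they ranged from 0 to 2 at 12 h, 0 to 1 at 48 h and 0 to 0 at 7 d, and for 7 d against 12 h from 0 to 4 (IONT) and 0 to 2 (IONC). Low signals limit 30 of the 70 members, and groups of 2 arrays limit IONT at 24 h, 3 d and 15 d.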
